A study of Homo sapiens with 10 samples.

Results

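Voltage-gated and potassium ion channel genes were followed in a survey of H3K27ac, the acetylation of histone H3 that marks active promoters and enhancers, in H1975 lung cancer cells. The members were the annotated regions whose gene symbol was that of a potassium channel gene (KCN), a voltage-gated calcium channel gene (CACNA, CACNB, CACNG) or a voltage-gated sodium channel gene (SCN), together with noncoding transcripts whose symbols start in the same way. There were 298 such regions of 67387 annotated regions, and the full table held 169637 regions. They belonged to 65 symbols: 57 of the 135 protein-coding channel genes that RefSeq lists under the same rule, and 8 noncoding symbols with 25 regions. Each region was 502 bp wide. Of the 298 regions, 40 lay within 1 kb of a transcription start site (TSS) and are called promoter regions here, and 258 lay outside promoters, most of them in introns (180) or between genes (46). A region carries the symbol of the nearest TSS, which can be an alternative start inside a gene, and it need not lie in that gene: of 173 regions whose host gene was named, 27 lay in another gene.

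Ion channels are membrane pores that open and close to let ions cross the cell membrane. Voltage-gated sodium channels carry the upstroke of the action potential, voltage-gated calcium channels let calcium in to trigger secretion and contraction, and potassium channels return the membrane to rest. In epithelial cells, potassium channels also set the membrane potential, cell volume and salt transport, whereas many voltage-gated pores and their partner subunits are best known from neurons and muscle.

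H1975 is an established lung adenocarcinoma line with a mutant EGFR, and all groups share that background. The osimertinib DTP cells (drug-tolerant persisters) had been exposed for 24 days to 500 nM osimertinib, an EGFR inhibitor. The osimertinib DTP + AZD5153 cells had 21 days of 500 nM osimertinib and then 3 days of 150 nM AZD5153, a BET bromodomain inhibitor, and both names are shortened below to DTP and DTP + AZD5153. The DMSO cells had 21 days without drug and 3 days with DMSO. Each group had 3 biological replicates, and 1 pooled input library was sequenced. The study used 1 cell line, and persisters are the cells that survived, so a change within cells and a change in which cells were present cannot be told apart, nor can less mark per cell and fewer cells with the mark.

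The counts over all regions summed to between 6263443 and 10463351 per H3K27ac library and to 1870885 for the input. The median input count was 13 over the channel regions, the same as over all annotated regions. All 298 channel regions passed the filter on low counts. Their mean levels over the 9 libraries ran from 1.58 to 50.5 CPM (counts scaled to a common TMM-adjusted library size). DTP + AZD5153 replicate 3 stood apart: it was the shallowest library, 9139 regions were at 0 in it, and its Spearman correlation with the other libraries of its group was 0.445 and 0.367. The epithelial identity of the line was checked at promoters of EPCAM, CDH1, KRT7, KRT8, KRT18 and KRT19. All 6 genes had a promoter region with a group mean of at least 9.04 CPM in every group, and the strongest promoter region of each was not called. Of all 85 regions of these genes, 4 were higher and 7 lower in DTP, and 6 and 14 in DTP + AZD5153, with 1 promoter region higher in both. In what follows, a called region is one with a Benjamini-Hochberg adjusted p under 0.05 in edgeR's quasi-likelihood test over the 157919 regions tested, fold changes are log2 with their standard error (SE), and group values are the mean ± SD over 3 libraries. Where 2 fold changes stand together, the first is DTP and the second DTP + AZD5153, both against DMSO.

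RefSeq (GRCh38.p14) gave a promoter sequence for 46 of the 65 symbols, from 250 bases before to 50 after the start, and 9 of these overlapped a counted channel promoter region. The sequences of 4 are shown because they stand for the different courses described below: KCNH1-IT1 and KCNAB2, whose promoter regions rose, KCNMA1, whose promoter regions at an internal start were not called while its introns fell, and KCNQ5, whose promoter held high levels without a call. The KCNQ5 sequence overlaps the counted region chr6:72621472-72621973 and not the higher regions of this promoter described below. KCNH1-IT1 lies at chr1:211133325-211133624 on the minus strand, KCNAB2 at chr1:6026083-6026382 on the plus strand, KCNMA1 at chr10:77350712-77351011 on the minus strand and KCNQ5 at chr6:72621814-72622113 on the plus strand. Capitals mark matches, on either strand, to 5 motifs that were searched: the AP-1 site TGANTCA, the TEAD site GGAATG, the cyclic AMP response element TGACGTCA, the GC box GGGCGG and the left part of the RE1 element, TCAGCACC.
KCNH1-IT1: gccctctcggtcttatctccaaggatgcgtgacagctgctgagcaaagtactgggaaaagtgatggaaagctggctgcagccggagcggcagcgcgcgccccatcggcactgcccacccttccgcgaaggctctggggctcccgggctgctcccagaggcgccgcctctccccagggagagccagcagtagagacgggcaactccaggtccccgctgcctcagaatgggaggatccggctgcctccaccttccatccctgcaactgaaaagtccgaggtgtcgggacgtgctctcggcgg
KCNAB2: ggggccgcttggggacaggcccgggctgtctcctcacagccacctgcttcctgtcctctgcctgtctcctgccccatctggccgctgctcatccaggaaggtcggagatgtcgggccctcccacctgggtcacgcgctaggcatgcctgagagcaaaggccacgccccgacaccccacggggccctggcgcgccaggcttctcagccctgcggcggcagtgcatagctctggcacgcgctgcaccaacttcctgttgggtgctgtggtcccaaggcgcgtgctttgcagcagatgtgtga
KCNMA1: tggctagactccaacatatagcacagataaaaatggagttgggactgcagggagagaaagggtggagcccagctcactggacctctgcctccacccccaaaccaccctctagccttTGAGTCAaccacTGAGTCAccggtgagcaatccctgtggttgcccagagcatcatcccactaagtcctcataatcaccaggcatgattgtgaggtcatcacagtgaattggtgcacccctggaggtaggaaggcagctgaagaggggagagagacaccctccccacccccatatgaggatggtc
KCNQ5: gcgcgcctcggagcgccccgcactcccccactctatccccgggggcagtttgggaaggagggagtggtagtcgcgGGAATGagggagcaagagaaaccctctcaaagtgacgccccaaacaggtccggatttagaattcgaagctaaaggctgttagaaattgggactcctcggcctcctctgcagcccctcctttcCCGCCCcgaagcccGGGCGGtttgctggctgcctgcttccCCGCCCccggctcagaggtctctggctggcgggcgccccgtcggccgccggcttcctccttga
The KCNMA1 sequence held 2 matches to the AP-1 letters, which occur in 7.71% of the 35116 RefSeq promoters of this length. The KCNQ5 sequence held 3 GC boxes (45.0% of promoters have at least 1) and 1 TEAD match (14%). KCNH1-IT1 and KCNAB2 held none of the 5, and none of the 4 held the cyclic AMP element (1.85%) or the RE1 part (1.67%). A match is only a match of letters.

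H3K27ac at channel regions moved in both directions in the persisters. Against DMSO, 52 of the 298 regions were called higher in DTP, in 23 genes and 33 loci after merging of regions within 1000 bp, and 43 were called lower, in 14 genes and 31 loci. Of all regions tested, 5.58% were called higher and 5.13% lower in this comparison. In DTP + AZD5153, 54 channel regions were higher (19 genes, 32 loci) and 57 lower (20 genes, 42 loci), beside 9.05% and 9.01% of all regions tested. Of the regions called in both comparisons, which share the DMSO libraries, 81 went in the same direction and 0 in opposite directions. The median log2 fold change over all channel regions was -0.29 in DTP and -0.16 in DTP + AZD5153, beside 0.15 and 0.23 over all regions tested. By gene, 20 of the 65 symbols had only higher regions in DTP, 11 only lower, 3 both and 31 neither. In DTP + AZD5153 these numbers were 17, 18, 2 and 28.

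The regions that rose were low in untreated cells. They and the regions that fell were chosen by the test against DMSO on these same counts. Their levels and peaks therefore follow in part from that choice and only describe the called regions. The 52 regions higher in DTP had group means of 0.159 to 3.26 CPM in DMSO, with a median of 1.02 CPM, and a median of 8.28 CPM in DTP. Of these, 45 overlapped a peak in no DMSO list, and 50 overlapped a peak in all 3 DTP lists. The 43 regions that fell had a median of 12.1 CPM in DMSO and 1.67 CPM in DTP, and all 43 overlapped a peak in all 3 DMSO lists while 28 did so in no DTP list.

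The counts depended on single libraries, at channel regions as over all regions tested. Without DMSO replicate 2, 11 channel regions were higher and 6 lower in DTP, and 35 and 32 in DTP + AZD5153. Of all 164143 regions tested in that fit, 668 were higher and 482 lower in DTP, and 3943 and 4526 in DTP + AZD5153. With every library these table-wide counts were 8814 and 8107, and 14286 and 14232. Without DTP + AZD5153 replicate 3, the library that stood apart, the channel numbers were 79 and 78, and 82 and 88. Over all 161758 regions tested they were 22942 and 20489, and 29786 and 27986. Of the 206 calls against DMSO, 78 held whichever of the 9 libraries was left out.

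**Figure D1:**
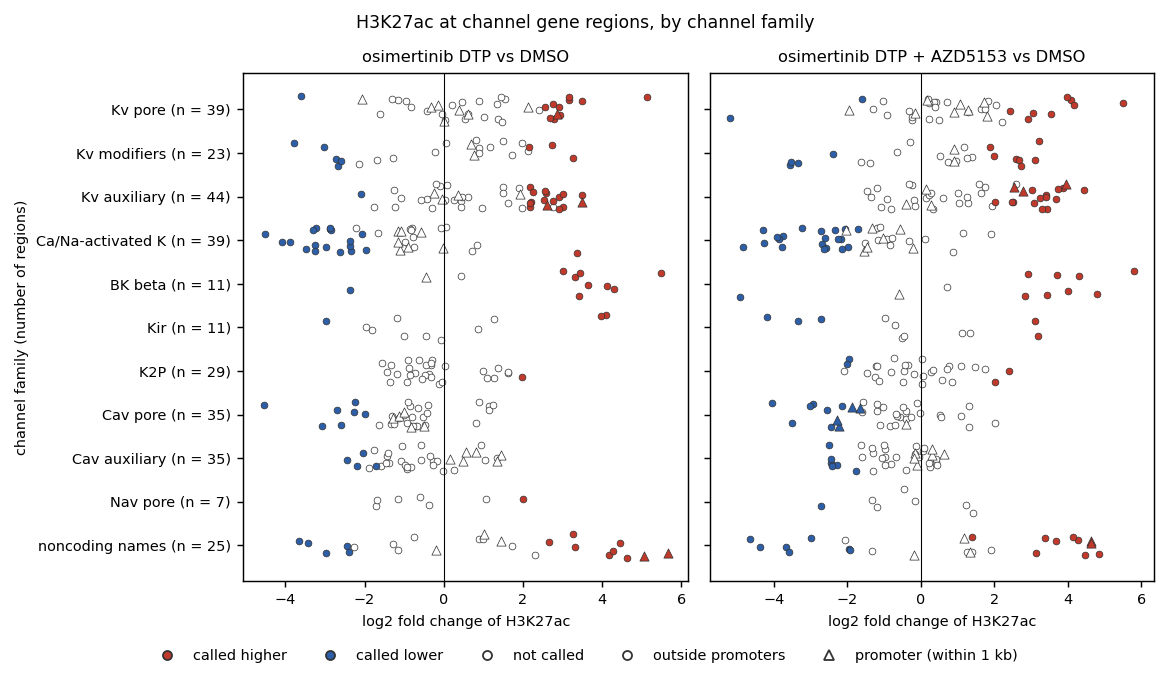
Each point is 1 channel region, placed by its log2 fold change of H3K27ac against DMSO (x axis) and its channel family (y axis, jittered), with DTP on the left and DTP + AZD5153 on the right; triangles are promoter regions, and filled points were called by edgeR. Rises predominate in the Kv auxiliary family, and those of the BK beta family are all at KCNMB2. The family labelled Ca/Na-activated K has regions of KCNMA1 and KCNN4 only. Its falls are at KCNMA1, with 2 at KCNN4 in DTP + AZD5153. No region of the calcium channel families was called higher, but 2 regions in introns of CACNA1C, placed with the noncoding names as CACNA1C-IT3, were.

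At promoters few regions were called. In DTP, 5 of 40 channel promoter regions were higher (12.5%) and 0 lower, beside 2.78% and 1.85% of all annotated promoter regions; DESeq2 called 7 higher and 2 lower, and 3 were higher in the fit with the replicate block. In DTP + AZD5153, 5 were higher (12.5%) and 4 lower (10.0%), beside 5.32% and 3.18%; 5 were higher and 6 lower without TMM scaling. Outside promoters the corresponding counts were 47 higher (18.2%) and 43 lower (16.7%) of 258 in DTP, beside 9.35% and 10.3% of all annotated regions outside promoters. They were 49 higher (19.0%) and 53 lower (20.5%) in DTP + AZD5153, beside 13.7% and 15.6%. Neighbouring regions of a gene are not independent, so these shares are a description.

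Promoter levels also moved with single libraries. DTP replicate 2 was the highest of its group at 30 of the 40 channel promoter regions, and DTP + AZD5153 replicate 3 was the highest of its group at 30 of 40. Over all annotated promoter regions the same libraries were the highest of their groups at 78.5% and 68.9%. DTP + AZD5153 replicate 3 was instead the lowest of its group at 36 of the 49 regions outside promoters that were higher in that group. The part of these libraries in the promoter results was not tested beyond leaving them out: without DTP replicate 2, 3 promoter regions remained above the threshold in DTP, and without DTP + AZD5153 replicate 3, 5 were higher and 10 lower in that group. Without DMSO replicate 2, 1 promoter region was higher in DTP, and 3 were higher and 1 lower in DTP + AZD5153.

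**Figure D2:**
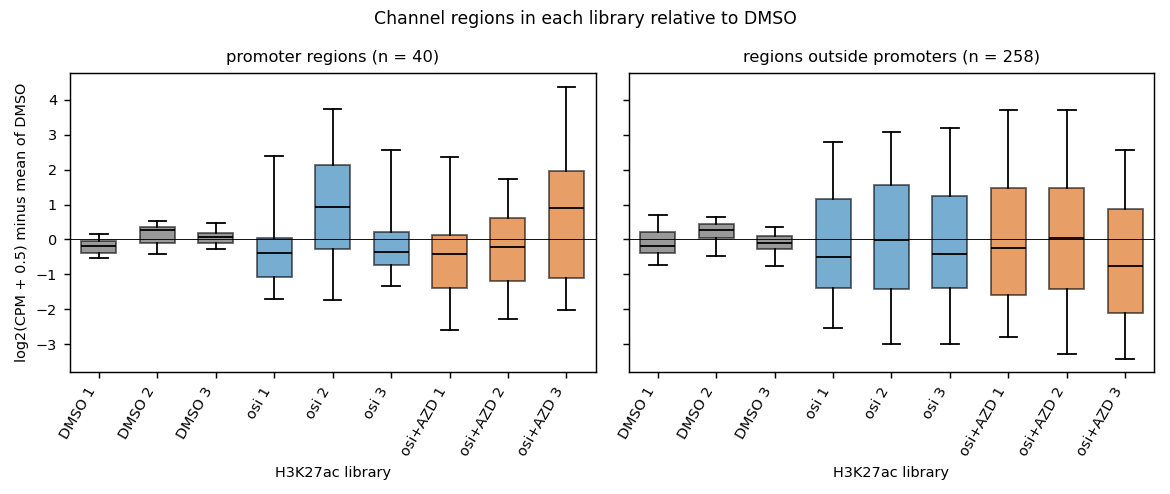
Boxes give, for each of the 9 H3K27ac libraries (x axis; osi is DTP, osi+AZD is DTP + AZD5153), the log2 of CPM + 0.5 minus its mean over the DMSO libraries (y axis) at channel promoter regions (left) and at channel regions outside promoters (right), with the median, the quartiles and whiskers from the 5th to the 95th percentile. At promoters the medians of DTP replicate 2 (0.92) and DTP + AZD5153 replicate 3 (0.90) lie above those of the other libraries, whereas outside promoters the latter has the lowest median (-0.76).

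KCNK15-AS1, KCNH1-IT1, KCNAB2 and KCNE4 had promoter regions that rose. The largest rise of the channel set in DTP was at the promoter of KCNK15-AS1, an antisense transcript beside the background potassium channel gene KCNK15 (chr20:44745921-44746422). Its values were 0.726, 1.24 and 0.704 CPM in DMSO, 16.2, 86.0 and 34.5 CPM in DTP, and 6.51, 23.7 and 36.5 CPM in DTP + AZD5153. All treated libraries lay above all DMSO libraries, with log2 fold changes of 5.66 ± 0.83 (edgeR adjusted p = 0.00273) and 4.62 ± 0.80 (edgeR adjusted p = 0.00193). Both calls held with any library left out. KCNH1-IT1, a transcript from an intron of the voltage-gated potassium channel gene KCNH1, had 0.453, 0.620 and 0.101 CPM in DMSO, 1.63, 31.0 and 8.16 CPM in DTP, and 5.71, 7.33 and 17.4 CPM in DTP + AZD5153 at its promoter (chr1:211133390-211133891). It was near 0 in DMSO and uneven among the treated libraries, and rose by 5.06 ± 0.99 (edgeR adjusted p = 0.00622) and 4.64 ± 0.98 (edgeR adjusted p = 0.00504) on the log2 scale. The call in DTP was lost without DMSO replicate 2 (edgeR adjusted p = 0.0512).

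KCNAB2 encodes a beta subunit that binds voltage-gated potassium pores inside the cell. Its upstream promoter region (chr1:6025393-6025894) had 1.09, 0.620 and 1.41 CPM in DMSO, 7.55, 19.5 and 8.46 CPM in DTP, and 3.51, 4.19 and 14.5 CPM in DTP + AZD5153, and rose by 3.49 ± 0.71 (edgeR adjusted p = 0.00754) and 2.80 ± 0.70 (edgeR adjusted p = 0.0122). Both calls were lost without DMSO replicate 2, with edgeR adjusted p of 0.0719 and 0.0828. The neighbouring promoter region, which overlaps the sequence printed above, was higher in DTP + AZD5153 (2.54 ± 0.65, edgeR adjusted p = 0.0129) and not called in DTP (1.94 ± 0.64, edgeR adjusted p = 0.0583). That call was lost without DMSO replicate 1 or 2 (edgeR adjusted p up to 0.0816, without replicate 2).

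Of the 5 channel promoter regions within 1 kb of a start site with the highest mean levels, that of KCNK15-AS1 was called, as given above, and the other 4 were not. KCNQ5, a pore of the M current that damps neuronal firing, had 10.1, 15.2 and 11.2 CPM in DMSO, 9.85, 37.3 and 8.36 CPM in DTP, and 22.6, 18.3 and 78.9 CPM in DTP + AZD5153 at chr6:72622329-72622830. The AZD5153 libraries were all above the DMSO libraries there, but replicate 3 was far above the others. The log2 differences were 0.60 ± 0.67 (edgeR adjusted p = 0.635) and 1.71 ± 0.68 (edgeR adjusted p = 0.0896). The next region of this promoter had 11.3 ± 3.41 CPM in DMSO, 10.2 ± 5.37 CPM in DTP, and 27.7 ± 13 CPM in DTP + AZD5153. KCNQ1OT1, the imprinted antisense transcript at KCNQ1, had 9.60 ± 2.24 CPM in DMSO, 19.4 ± 20.7 CPM in DTP, and 21.8 ± 18.8 CPM in DTP + AZD5153, and KCNIP2, a calcium-binding partner of cardiac Kv4 channels, had 13.7 ± 3.49 CPM in DMSO, 17.8 ± 15.3 CPM in DTP, and 15.4 ± 8.96 CPM in DTP + AZD5153. Over all 40 channel promoter regions the median level was 7.89 CPM, beside 11.9 CPM for all annotated promoter regions, whereas outside promoters the medians were 6.47 and 6.53 CPM.

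Among the Kv pore genes, which form the voltage-gated potassium pores, 11 of 39 regions were higher (28.2%) and 1 lower (2.56%) in DTP. The shares of annotated regions outside promoters were 9.35% and 10.3%. In DTP + AZD5153, 8 were higher (20.5%) and 2 lower (5.13%), beside 13.7% and 15.6%. With DESeq2 these counts were 13 and 4, and 15 and 2, and without DMSO replicate 2 they were 2 and 0, and 5 and 1. The largest rise of the family was in an intron of KCNH1 (chr1:211068615-211069116), an ether-a-go-go channel of brain that is also known from tumour cells. The values were 0.0907, 0.413 and 0.101 CPM in DMSO, 4.30, 9.88 and 8.16 CPM in DTP, and 11.3, 14.5 and 2.90 CPM in DTP + AZD5153. Every treated library was above every DMSO library, and the log2 fold changes were 5.14 ± 0.83 (edgeR adjusted p = 0.00350) and 5.51 ± 0.84 (edgeR adjusted p = 0.00132). Both calls held with any library left out.

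At the M-channel genes KCNQ5 and KCNQ3 the called regions lay inside the gene or at its end, and all were higher. At KCNQ5 the intronic region chr6:73063076-73063577 had 1.09, 0.310 and 0.101 CPM in DMSO, 4.49, 5.71 and 3.93 CPM in DTP, and 16.5, 9.66 and 1.93 CPM in DTP + AZD5153. It rose by 3.17 ± 0.82 (edgeR adjusted p = 0.0215) and 4.18 ± 0.84 (edgeR adjusted p = 0.00396). In DTP the call was lost in 4 of 9 fits that left out a library, with an edgeR adjusted p of 0.126 without DMSO replicate 2. The noncoding KCNQ5-IT1, whose regions lie in an intron of KCNQ5, had both its regions higher in both groups. At KCNQ3, another subunit of the M channel, a region in the 3' UTR (chr8:132172541-132173042) had 0.453, 0.929 and 0.603 CPM in DMSO, 7.36, 8.77 and 6.75 CPM in DTP, and 12.7, 10.0 and 11.4 CPM in DTP + AZD5153. The treated groups did not overlap DMSO, and the rises were 3.50 ± 0.59 (edgeR adjusted p = 0.00371) and 4.08 ± 0.60 (edgeR adjusted p = 0.00121). Both calls held with any library left out. Its promoter regions were not called, with log2 differences of -0.32 and -0.17 at the region that covers a start site.

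KCNA6, a Shaker-type pore of neurons, held the largest fall of the family, although its region lies in an intron of GALNT8 (chr12:4823770-4824271). It had 5.17, 6.71 and 3.12 CPM in DMSO, 0.287, 0.278 and 0.604 CPM in DTP, and 0.10, 0.233 and 0 CPM in DTP + AZD5153, and fell by 3.62 ± 0.74 (edgeR adjusted p = 0.00721) and 5.19 ± 0.86 (edgeR adjusted p = 0.00163). The AZD5153 libraries together held 3 counts against 153 in DMSO, a ratio of 39.5 at equal depth with an exact 95% counting interval of 13.3 to 194. The DTP call was lost without DMSO replicate 2 (edgeR adjusted p = 0.0766).

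The electrically silent Kv subunits, which change the gating of other Kv pores, went in both directions, as annotated regions outside promoters did. In DTP, 3 of 23 regions were higher (13.04%) and 5 lower (21.7%), beside 9.35% and 10.3% of annotated regions outside promoters. In DTP + AZD5153, 7 were higher (30.4%) and 4 lower (17.4%), beside 13.7% and 15.6%. The counts with DESeq2 were 6 and 6, and 7 and 4. All the falls were at KCNF1 and KCNG4. KCNF1, a subunit of brain, had 4 of 5 regions lower in DTP, of which chr2:10936460-10936961 between genes had 10.2, 20.6 and 11.8 CPM in DMSO, 2.29, 1.95 and 0.906 CPM in DTP, and 2.10, 0.814 and 1.16 CPM in DTP + AZD5153. The treated libraries were all below the DMSO libraries, with -3.04 ± 0.62 (edgeR adjusted p = 0.00722) and -3.35 ± 0.63 (edgeR adjusted p = 0.00285). Its call in DTP was lost without DMSO replicate 2 (edgeR adjusted p = 0.0661) or DTP replicate 3. A KCNF1 region further away (chr2:11003966-11004467) fell by 2.60 ± 0.73 (edgeR adjusted p = 0.0311) and 3.57 ± 0.79 (edgeR adjusted p = 0.00659), and these calls were lost in 6 of 9 and 1 of 9 fits with a library left out, with an edgeR adjusted p of up to 0.198. KCNG4 had 1 intronic region (chr16:84223606-84224107), with 9.98 ± 4.30 CPM in DMSO, 0.696 ± 0.252 CPM in DTP, and 0.902 ± 0.726 CPM in DTP + AZD5153, which fell by 3.79 ± 0.69 (edgeR adjusted p = 0.00464) and 3.55 ± 0.69 (edgeR adjusted p = 0.00344). Both calls held with any library left out.

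The rises of this family were at KCNS1, KCNS2 and KCNS3. The KCNS1 region chr20:45053333-45053834 lies in an intron of STK4 and had 0.998, 0.826 and 0.201 CPM in DMSO, 5.55, 7.24 and 7.05 CPM in DTP, and 6.21, 10.7 and 2.32 CPM in DTP + AZD5153. It rose by 3.26 ± 0.70 (edgeR adjusted p = 0.00954) and 3.23 ± 0.70 (edgeR adjusted p = 0.00598). The call in DTP was lost without DMSO replicate 2 or 3 (edgeR adjusted p up to 0.0717). KCNS2 had 2 of 5 regions higher in DTP and 4 in DTP + AZD5153. At chr8:98382844-98383345 the rises were 2.16 ± 0.56 (edgeR adjusted p = 0.0213) and 2.58 ± 0.57 (edgeR adjusted p = 0.00598), and they were lost in 5 of 9 and 1 of 9 fits that left out a library, with an edgeR adjusted p of up to 0.144. KCNS3 had 2 of 5 regions higher in DTP + AZD5153 and none called in DTP.

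Kv auxiliary subunits bind the pores and set their gating or surface level, and in this family rises predominated. Of 44 regions, 16 were higher (36.4%) and 1 lower (2.27%) in DTP, beside 9.35% and 10.3% of annotated regions outside promoters. In DTP + AZD5153, 17 were higher (38.6%) and 0 lower, beside 13.7% and 15.6%. Without DMSO replicate 2, 0 of the 44 were called in DTP and 10 were higher in DTP + AZD5153. KCNIP1, a calcium sensor of neuronal Kv4 channels, had 6 of 11 regions higher in both groups. The strongest, chr5:170522000-170522501 in an intron, had 5.08, 2.79 and 1.91 CPM in DMSO, 21.9, 34.5 and 22.9 CPM in DTP, and 46.2, 56.3 and 27.3 CPM in DTP + AZD5153. Its neighbour chr5:170522991-170523492 had 3.63, 0.620 and 1.91 CPM in DMSO, 17.6, 32.4 and 19.9 CPM in DTP, and 45.7, 47.6 and 42.7 CPM in DTP + AZD5153. All treated libraries were above all DMSO libraries at both, and the AZD5153 libraries were above the DTP libraries at the second. The fold changes were 3.01 ± 0.58 (edgeR adjusted p = 0.00566) and 3.72 ± 0.59 (edgeR adjusted p = 0.00146) at the first and 3.49 ± 0.64 (edgeR adjusted p = 0.00464) and 4.45 ± 0.66 (edgeR adjusted p = 0.00122) at the second. In DTP both calls were lost without DMSO replicate 2 (edgeR adjusted p = 0.0609 and 0.0512), and the first also without DMSO replicate 3.

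KCNE4, a small membrane subunit that damps Kv currents, had 7 of 16 regions higher in each group, spread over 107 kb on both sides of its start. Its promoter region (chr2:223052956-223053457) had 1.54, 0.620 and 1.21 CPM in DMSO, 7.84, 9.05 and 3.93 CPM in DTP, and 11.3, 2.21 and 40.0 CPM in DTP + AZD5153, with rises of 2.60 ± 0.82 (edgeR adjusted p = 0.050) and 3.96 ± 0.86 (edgeR adjusted p = 0.00576). The call in DTP was just under the threshold, and the AZD5153 libraries were very uneven. The DTP call was lost with the replicate block (edgeR adjusted p = 0.0650) and in 6 of 9 fits that left out a library (up to 0.210, without DMSO replicate 2). The region next to it, chr2:223054026-223054527, was more even: 1.27, 0.826 and 0.704 CPM in DMSO, 9.56, 6.54 and 6.65 CPM in DTP, and 19.6, 9.66 and 12.6 CPM in DTP + AZD5153. It rose by 3.00 ± 0.59 (edgeR adjusted p = 0.00625) and 3.88 ± 0.61 (edgeR adjusted p = 0.00140). In DTP the call was lost without DMSO replicate 2 or 3 (edgeR adjusted p up to 0.0621).

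KCNIP3, which also acts as the transcriptional repressor DREAM, had 1 region in each direction. A region between genes (chr2:95293063-95293564) fell by 2.08 ± 0.56 (edgeR adjusted p = 0.0245) in DTP. That call was lost in 6 of 9 fits with a library left out (edgeR adjusted p up to 0.131, without DMSO replicate 2), and DTP + AZD5153 was not called (-1.46 ± 0.55, edgeR adjusted p = 0.0711). An intronic region (chr2:95328427-95328928) rose by 2.26 ± 0.56 (edgeR adjusted p = 0.0176) and 3.41 ± 0.58 (edgeR adjusted p = 0.00180). Its values of 1.63, 0.826 and 1.51 CPM in DMSO, 6.60, 7.24 and 5.44 CPM in DTP, and 15.7, 9.77 and 17.2 CPM in DTP + AZD5153 did not overlap between DMSO and either group. The DTP call was lost in 4 of 9 fits with a library left out (edgeR adjusted p up to 0.127, without DMSO replicate 2).

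The BK channel showed opposite courses at its pore and at a beta subunit. KCNMA1 encodes the large-conductance pore that opens with voltage and calcium, and had the most regions of any channel gene, 26 over 494 kb. In each group 18 of them were lower. These were 4 and 11 without DMSO replicate 2. The falls lay in introns, except 1 within 3 kb of a start site and 1 between genes, from chr10:77391584 to chr10:77673927. At the strongest, chr10:77505413-77505914, the values were 45.7, 69.6 and 43.9 CPM in DMSO, 13.8, 11.7 and 5.14 CPM in DTP, and 17.7, 15.2 and 2.51 CPM in DTP + AZD5153. The log2 fold changes there of -2.38 ± 0.66 (edgeR adjusted p = 0.0287) and -2.15 ± 0.65 (edgeR adjusted p = 0.0295) were lost in 6 of 9 and 3 of 9 fits that left out a library (edgeR adjusted p up to 0.155 and 0.130, without DMSO replicate 2). The largest fall was at chr10:77629025-77629526, with 12.6, 26.3 and 17.1 CPM in DMSO, 1.15, 0.417 and 0.806 CPM in DTP, and 0.902, 0.698 and 0.193 CPM in DTP + AZD5153. The log2 fold changes were -4.51 ± 0.67 (edgeR adjusted p = 0.00273) and -4.85 ± 0.69 (edgeR adjusted p = 0.00114), and held with any library left out.

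KCNMA1 starts at chr10:77637808 in RefSeq and runs toward lower coordinates, and no promoter region was counted there. Its 2 promoter regions lie at an internal start, of which 1 overlaps the sequence printed above, and they were not called. They had 13.6 ± 4.06 CPM in DMSO, 9.09 ± 3.29 CPM in DTP, and 9.20 ± 4.19 CPM in DTP + AZD5153, and 15.6 ± 5.78 CPM in DMSO, 6.98 ± 2.42 CPM in DTP, and 7.56 ± 5.78 CPM in DTP + AZD5153. Downstream of this internal start, 1 intronic region (chr10:77290222-77290723) was higher in DTP, with 1.36, 1.34 and 0.704 CPM in DMSO, 4.40, 12.8 and 18.2 CPM in DTP, and 3.01, 9.07 and 0.580 CPM in DTP + AZD5153. The rise was 3.36 ± 0.81 (edgeR adjusted p = 0.0158). This call was lost in 5 of 9 fits with a library left out (edgeR adjusted p up to 0.0960, without DMSO replicate 3), and the difference in DTP + AZD5153 was 1.90 ± 0.79 (edgeR adjusted p = 0.103). All the falls under the KCNMA1 symbol thus lay upstream of the internal start. The 4 regions of KCNMA1-AS2 lie further downstream in KCNMA1, and 2 of them were also lower in both groups.

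KCNMB2 encodes the beta 2 subunit, which inactivates BK channels. All 8 of its regions, over 63.0 kb of introns and exons, were higher in both groups, with log2 fold changes of 3.01 to 5.48 in DTP and 2.83 to 5.81 in DTP + AZD5153. At chr3:178320626-178321127 the values were 0.726, 0.310 and 0.603 CPM in DMSO, 21.4, 29.4 and 24.7 CPM in DTP, and 34.9, 48.1 and 11.6 CPM in DTP + AZD5153. These rises of 5.48 ± 0.71 (edgeR adjusted p = 0.00273) and 5.81 ± 0.72 (edgeR adjusted p = 0.00114) held with any library left out. Without DMSO replicate 2, 2 of the 8 regions remained called in DTP and 7 in DTP + AZD5153. The strongest region, chr3:178381983-178382484 in an exon, had 3.63, 2.68 and 0.905 CPM in DMSO, 26.2, 26 and 24.9 CPM in DTP, and 45.3, 44.4 and 4.64 CPM in DTP + AZD5153. Here the lowest AZD5153 library, replicate 3, was just above the highest DMSO library, and the rises were 3.41 ± 0.76 (edgeR adjusted p = 0.0109) and 3.70 ± 0.77 (edgeR adjusted p = 0.00460). Its call in DTP was lost without DMSO replicate 2 or 3 (edgeR adjusted p up to 0.0754). No annotated region of KCNMB2 was in the promoter class.

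**Figure D3:**
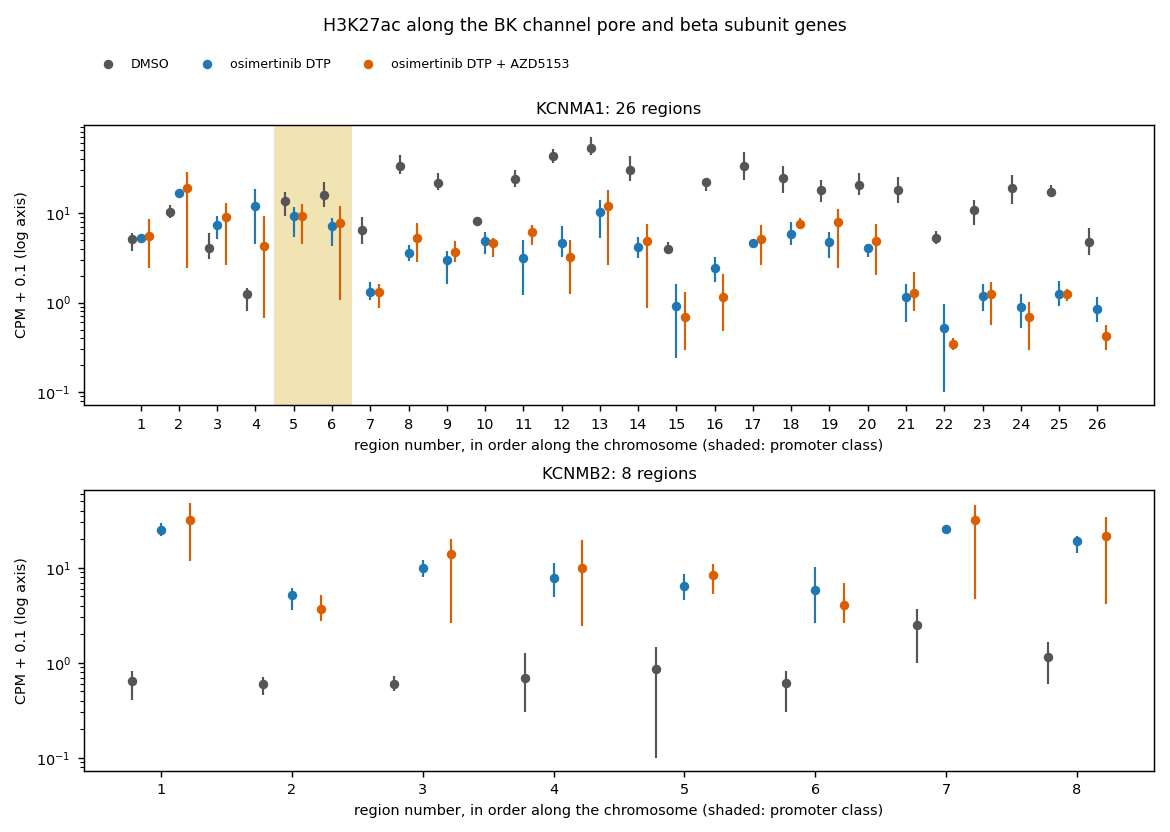
Points are group means and lines the range of the 3 libraries of H3K27ac in CPM + 0.1 (log y axis) at each region of KCNMA1 (top) and KCNMB2 (bottom), in order along the chromosome (x axis); shading marks the promoter class. At KCNMA1 the treated groups lie below DMSO from region 7 onward, by less at region 10, which was not called, and the promoter regions were not called, whereas at KCNMB2 they lie above DMSO in all 8 regions.

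KCNMB4, the beta subunit of neurons, had 1 called region, between genes at chr12:70448830-70449331. It had 8.80, 24.4 and 15.3 CPM in DMSO, 5.45, 1.81 and 2.01 CPM in DTP, and 0.802, 0.465 and 0.193 CPM in DTP + AZD5153, and fell by 2.37 ± 0.64 (edgeR adjusted p = 0.0253) and 4.93 ± 0.75 (edgeR adjusted p = 0.00133). The call in DTP was lost in 4 of 9 fits with a library left out (edgeR adjusted p up to 0.161, without DMSO replicate 2). KCNN4, the calcium-activated channel of epithelia and lymphocytes, had 2 of 13 regions lower in DTP + AZD5153 and none called in DTP, and none of its 5 promoter regions was called. DESeq2 gave 6 lower regions of KCNN4 in DTP + AZD5153 and 2 in DTP.

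The inward rectifiers had regions at 2 genes. KCNJ6, a G-protein-gated channel of neurons, rose at both its regions, which are intronic and close together. At chr21:37849357-37849858 the values were 0.998, 0.929 and 0.503 CPM in DMSO, 8.32, 17.8 and 16.2 CPM in DTP, and 7.01, 11.6 and 2.51 CPM in DTP + AZD5153, a rise of 4.10 ± 0.69 (edgeR adjusted p = 0.00371) and 3.11 ± 0.67 (edgeR adjusted p = 0.00581) that held with any library left out. The other region (chr21:37850069-37850570) rose by 3.98 ± 0.81 (edgeR adjusted p = 0.00727) and 3.18 ± 0.80 (edgeR adjusted p = 0.0124), calls lost without DMSO replicate 2 (edgeR adjusted p = 0.0599 in DTP) and, in DTP + AZD5153, also without DMSO replicate 3 (edgeR adjusted p = 0.0643). KCNJ15, a rectifier of epithelia, had 1 of 9 regions lower in DTP and 3 in DTP + AZD5153. Its region chr21:38244548-38245049 had 8.16 ± 2.15 CPM in DMSO, 1.01 ± 0.479 CPM in DTP, and 0.764 ± 0.604 CPM in DTP + AZD5153 and fell by 2.98 ± 0.66 (edgeR adjusted p = 0.0105) and 3.33 ± 0.68 (edgeR adjusted p = 0.00429). In DTP the call was lost in 3 of 9 fits with a library left out (edgeR adjusted p up to 0.0805, without DMSO replicate 2). At chr21:38245572-38246073 the log2 fold change of -4.20 ± 0.76 (edgeR adjusted p = 0.00234) in DTP + AZD5153 held with any library left out, and DTP was not called (-1.81 ± 0.62, edgeR adjusted p = 0.0689).

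The K2P channels, which carry the background potassium leak, had 29 regions, all outside promoters. In DTP 1 was higher (3.45%) and 0 lower, and in DTP + AZD5153 2 were higher and 2 lower (6.90% each), beside 9.35% and 10.3%, and 13.7% and 15.6%, of annotated regions outside promoters and the shares of all regions tested given above. KCNK3, an acid-sensitive leak channel, held 2 of the 5 highest channel regions outside promoters. At chr2:26724674-26725175 it had 55.1 ± 8.80 CPM in DMSO, 30.4 ± 10.0 CPM in DTP, and 48.2 ± 18.9 CPM in DTP + AZD5153, with log2 differences of -0.86 ± 0.50 (edgeR adjusted p = 0.296) and -0.19 ± 0.49 (edgeR adjusted p = 0.831). The neighbouring region had 35.9 ± 9.29 CPM in DMSO, 28.5 ± 11.4 CPM in DTP, and 45.5 ± 5.55 CPM in DTP + AZD5153. KCNK5, a leak channel of epithelia, rose in an intron (chr6:39203196-39203697), with 1.90 ± 0.759 CPM in DMSO, 7.60 ± 0.562 CPM in DTP, and 10.2 ± 4.66 CPM in DTP + AZD5153. The rises were 1.99 ± 0.58 (edgeR adjusted p = 0.0346) and 2.40 ± 0.58 (edgeR adjusted p = 0.00997). These calls were lost in 6 of 9 and 1 of 9 fits that left out a library (edgeR adjusted p up to 0.191 and 0.0795, without DMSO replicate 2). A KCNK5 region between genes (chr6:39263746-39264247) fell by 2.01 ± 0.65 (edgeR adjusted p = 0.0385) in DTP + AZD5153. That call was lost in 7 of 9 such fits (up to 0.151, without DMSO replicate 2).

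Regions that carry the symbol of a protein-coding calcium channel gene were called by edgeR in 1 direction only. The regions of CACNA1C-IT3, which lie in introns of CACNA1C, are counted with the noncoding symbols below, and 2 of them were higher in both groups. Of 70 regions of 16 genes, 0 were higher in either group, beside 9.35% and 13.7% of annotated regions outside promoters. In DTP 11 were lower (15.7%, at 5 genes) and in DTP + AZD5153 17 (24.3%, at 7 genes), beside 10.3% and 15.6%. DESeq2 called 1 region higher, at CACNA1H in DTP + AZD5153, with 19 and 24 lower. When DMSO replicate 2 was left out, 1 region was lower in DTP and 10 in DTP + AZD5153. The pore genes had 7 and 11 falls among 35 regions. CACNA1A, the P/Q-type pore of presynaptic terminals, had 5 and 6 of its 13 regions lower. Its strongest called region (chr19:13399495-13399996, in an intron) had 49.9, 56.4 and 40.5 CPM in DMSO, 14.5, 8.35 and 7.25 CPM in DTP, and 12.8, 8.26 and 3.48 CPM in DTP + AZD5153. The log2 fold changes of -2.28 ± 0.57 (edgeR adjusted p = 0.0187) and -2.57 ± 0.58 (edgeR adjusted p = 0.00718) left no overlap with DMSO. The DTP call was lost in 5 of 9 fits with a library left out (edgeR adjusted p up to 0.112, without DMSO replicate 2). Of its 3 promoter regions, the strongest was not called (15.7 ± 5.71 CPM in DMSO, 11.2 ± 3.16 CPM in DTP, and 11.8 ± 6.30 CPM in DTP + AZD5153) and the other 2 were lower in DTP + AZD5153 and not called in DTP. Their log2 fold changes in DTP + AZD5153 were -2.22 ± 0.69 (edgeR adjusted p = 0.0323) and -1.86 ± 0.59 (edgeR adjusted p = 0.0352). Each of these promoter calls was lost in 5 of 9 fits with a library left out (edgeR adjusted p up to 0.141 and 0.135, without DMSO replicate 3).

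CACNA1E, the R-type pore of neurons and endocrine cells, held the largest fall of the pore genes in both groups (chr1:181325108-181325609, in an intron). It had 4.26, 10.0 and 7.04 CPM in DMSO, 0.287, 0.278 and 0.302 CPM in DTP, and 0.301, 0.698 and 0.193 CPM in DTP + AZD5153, and fell by 4.55 ± 0.71 (edgeR adjusted p = 0.00304) and 4.06 ± 0.70 (edgeR adjusted p = 0.00184). Both calls held with any library left out. CACNA1I, a T-type pore, had 1 of 8 regions lower in both groups. The 2 regions of CACNA1C, the L-type pore of heart and smooth muscle, are promoter regions of the class within 1 kb, and both were lower in DTP + AZD5153. At chr12:2640048-2640549 the values were 7.62, 3.82 and 3.92 CPM in DMSO, 2.87, 3.20 and 1.61 CPM in DTP, and 1.10, 1.05 and 0.966 CPM in DTP + AZD5153. The log2 fold change was -2.28 ± 0.61 (edgeR adjusted p = 0.0158) in DTP + AZD5153, and the call was lost without DMSO replicate 1 (edgeR adjusted p = 0.0847) or DTP + AZD5153 replicate 1. DTP was not called (-1.0 ± 0.56, edgeR adjusted p = 0.281). CACNA1B, the N-type pore, had its only region lower in DTP + AZD5153 (-2.15 ± 0.68, edgeR adjusted p = 0.0370). That call was lost in 6 of 9 fits with a library left out (edgeR adjusted p up to 0.128, without DMSO replicate 2) and with the replicate block (edgeR adjusted p = 0.0547). CACNA1H, another T-type pore, had no region called by edgeR, though its 5 regions had a median log2 fold change of 1.15 and 1.30.

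The calcium channel auxiliary subunits had 4 falls in DTP (11.4%) and 6 in DTP + AZD5153 (17.1%) among 35 regions, and DESeq2 called 11 in each. The edgeR shares lie near the 10.3% and 15.6% of annotated regions outside promoters. CACNG3, which in brain also serves as a partner of AMPA receptors, had 3 of 8 regions lower in DTP and none called in DTP + AZD5153. At chr16:24271329-24271830 the values were 13.9, 22.5 and 21.1 CPM in DMSO, 5.55, 3.06 and 5.34 CPM in DTP, and 9.52, 6.52 and 2.51 CPM in DTP + AZD5153, with -2.04 ± 0.59 (edgeR adjusted p = 0.0346) and -1.62 ± 0.58 (edgeR adjusted p = 0.0607). The call was lost with the replicate block (edgeR adjusted p = 0.0501) and in 6 of 9 fits that left out a library (up to 0.160, without DMSO replicate 2). CACNG6, a subunit of skeletal muscle, had 1 of 10 regions lower in DTP and 5 in DTP + AZD5153. Its intronic region chr19:54008431-54008932 had 9.33 ± 1.05 CPM in DMSO, 1.70 ± 0.106 CPM in DTP, and 1.74 ± 0.936 CPM in DTP + AZD5153 and fell by 2.45 ± 0.58 (edgeR adjusted p = 0.0144) and 2.44 ± 0.59 (edgeR adjusted p = 0.00971). Its call in DTP was lost in 5 of 9 fits with a library left out (edgeR adjusted p up to 0.0826, without DTP replicate 3). Downstream, chr19:54021354-54021855 had 22 ± 2.14 CPM in DMSO, 7.92 ± 2.87 CPM in DTP, and 4.13 ± 2.89 CPM in DTP + AZD5153, and fell in DTP + AZD5153 by 2.44 ± 0.61 (edgeR adjusted p = 0.0120). That call was lost without DMSO replicate 3 or DTP + AZD5153 replicate 1 (edgeR adjusted p up to 0.0530). At chr19:54024480-54024981 the log2 fold change of -2.49 ± 0.54 (edgeR adjusted p = 0.00555) held with any library left out.

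The highest channel region of all belonged to this family and was not called. At CACNG4 (chr17:66952435-66952936, between genes) the values were 33.8, 65.0 and 51.2 CPM in DMSO, 35.2, 67.2 and 45.7 CPM in DTP, and 35.7, 60.7 and 60.1 CPM in DTP + AZD5153, with log2 differences of -0.02 ± 0.49 (edgeR adjusted p = 0.989) and 0.06 ± 0.49 (edgeR adjusted p = 0.95). An intronic region of CACNG2, the neuronal subunit stargazin, had 36.8 ± 9.26 CPM in DMSO, 29.1 ± 10.4 CPM in DTP, and 42.7 ± 3.00 CPM in DTP + AZD5153. None of the regions of CACNG2 and CACNG4 was called by edgeR, and DESeq2 called 2 regions of CACNG4 lower in each group.

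Sodium channel genes had 7 regions at 5 genes, none of them at a promoter. SCN8A, the main sodium pore at the axon initial segment, rose in an intron in DTP (chr12:51773104-51773605), with 2.45, 3.20 and 1.01 CPM in DMSO, 8.89, 13.4 and 4.73 CPM in DTP, and 6.41, 6.17 and 2.90 CPM in DTP + AZD5153. The rise of 2.01 ± 0.62 (edgeR adjusted p = 0.0457) was lost in 7 of 9 fits that left out a library (edgeR adjusted p up to 0.241, without DMSO replicate 3), and DTP + AZD5153 was not called (1.22 ± 0.61, edgeR adjusted p = 0.180). SCN10A, a pore of sensory neurons, had 1 of 2 regions lower in DTP + AZD5153 (4.32 ± 1.31 CPM in DMSO, 1.32 ± 0.279 CPM in DTP, and 0.696 ± 0.585 CPM in DTP + AZD5153), by -2.71 ± 0.71 (edgeR adjusted p = 0.0143). This call was lost in 4 of 9 such fits (up to 0.0826, without DMSO replicate 2). No region carried the symbol of a sodium channel beta subunit.

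The noncoding symbols followed the same 2 directions. Of 25 regions, 9 were higher (36%) and 5 lower (20%) in DTP, beside 9.35% and 10.3% of annotated regions outside promoters. In DTP + AZD5153, 10 were higher (40%) and 7 lower (28%), beside 13.7% and 15.6%. KCNK15-AS1 had 4 and 5 of 7 regions higher. Besides its promoter, the intronic region chr20:44734455-44734956 had 1.45, 2.38 and 2.01 CPM in DMSO, 19.1, 48.2 and 39.4 CPM in DTP, and 26.4, 49.1 and 37.9 CPM in DTP + AZD5153, and rose by 4.18 ± 0.60 (edgeR adjusted p = 0.00273) and 4.27 ± 0.60 (edgeR adjusted p = 0.00114), calls that held with any library left out. Its region chr20:44731428-44731929 was already high in DMSO (20.2 ± 3.27 CPM in DMSO, 37.7 ± 8.67 CPM in DTP, and 53.4 ± 4.95 CPM in DTP + AZD5153) and rose by 1.40 ± 0.47 (edgeR adjusted p = 0.0469) in DTP + AZD5153. That call was lost in 7 of 9 fits with a library left out (edgeR adjusted p up to 0.186, without DMSO replicate 1).

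The 7 regions that carry the symbol CACNA1C-IT3 all lie in introns of CACNA1C and changed in both directions within 77.5 kb. Near the start of CACNA1C-IT3, chr12:2264600-2265101 and chr12:2265186-2265687 rose. The first had 0.453, 0.207 and 0.101 CPM in DMSO, 6.12, 8.49 and 3.32 CPM in DTP, and 6.91, 7.56 and 3.29 CPM in DTP + AZD5153, a rise of 4.46 ± 0.73 (edgeR adjusted p = 0.00359) and 4.46 ± 0.73 (edgeR adjusted p = 0.00162), and the second rose by 4.63 ± 0.72 (edgeR adjusted p = 0.00301) and 4.85 ± 0.72 (edgeR adjusted p = 0.00122). All 4 calls held with any library left out. The other 5 regions were lower in DTP + AZD5153 and 3 of them in DTP. At chr12:2339521-2340022 the values were 2.72, 5.78 and 4.32 CPM in DMSO, 0.191, 0.278 and 0.504 CPM in DTP, and 0.401, 0 and 0 CPM in DTP + AZD5153, with log2 fold changes of -3.66 ± 0.86 (edgeR adjusted p = 0.0141) and -4.64 ± 0.95 (edgeR adjusted p = 0.00436). The call in DTP was lost in 5 of 9 fits with a library left out (edgeR adjusted p up to 0.111, without DMSO replicate 2). The strongest of the 5, chr12:2336563-2337064, had 20.5 ± 8.53 CPM in DMSO, 12.1 ± 3.56 CPM in DTP, and 5.39 ± 2.13 CPM in DTP + AZD5153, with -0.76 ± 0.55 (edgeR adjusted p = 0.425) and -1.92 ± 0.57 (edgeR adjusted p = 0.0277), and the second call was lost in 3 of 9 such fits (edgeR adjusted p up to 0.149, without DMSO replicate 2).

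Channel genes of neural type, a list of 54 genes known chiefly from neurons, were represented by 24 genes with 101 regions. KCNA6, which fell, and KCNH1, which rose, are not on this list, so their regions are not in the counts that follow. In DTP, 19 of the 101 regions were higher (18.8%, at 10 genes) and 16 lower (15.8%, at 7 genes). The shares were 17.4% and 14.4% of all channel regions, and 9.35% and 10.3% of annotated regions outside promoters. In DTP + AZD5153, 17 were higher (16.8%, at 7 genes) and 14 lower (13.9%, at 7 genes). These shares lie near the 18.1% and 19.1% of all channel regions and the 13.7% and 15.6% of annotated regions outside promoters. Among the gains, those of KCNC1, KCNIP1, KCNIP3, KCNIP4, KCNJ6, KCNQ3, KCNQ5 and SCN8A lay outside promoters. The gains of other neural genes are not reported here. Among the 59 regions of neural potassium channel genes, 18 were higher (30.5%) and 6 lower (10.2%) in DTP, with a median log2 fold change of 0.60. Among the 37 regions of neural calcium channel genes, 0 were higher and 10 lower, with a median of -1.08. In DTP + AZD5153 these counts were 17 (28.8%) and 4 (6.78%), and 0 and 9 (24.3%), with medians of 0.76 and -0.97. Of the 196 regions of all protein-coding potassium channel genes, neural or not, 42 were higher (21.4%) and 27 lower (13.8%) in DTP. In DTP + AZD5153, 44 were higher (22.4%) and 32 lower (16.3%). Of the 70 regions of all protein-coding calcium channel genes, 0 were higher in either group. Without DMSO replicate 2, 2 regions of neural potassium genes were higher and 0 lower in DTP, and 12 and 2 in DTP + AZD5153.

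**Figure D4:**
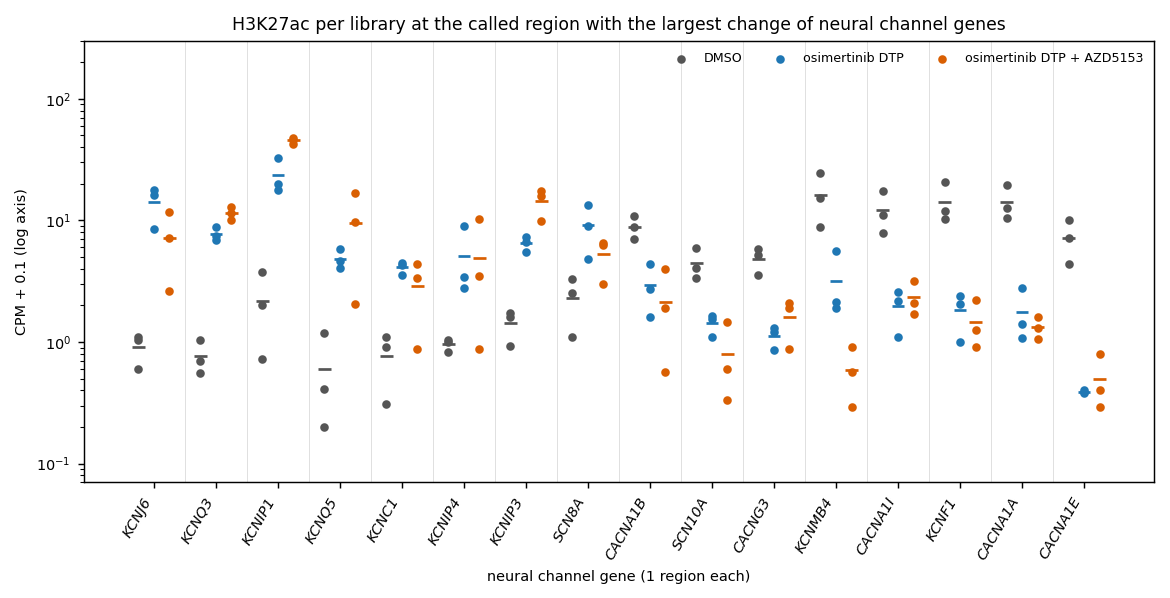
Each column is the called region with the largest change of 1 of the neural channel genes reported here, with the H3K27ac of every library in CPM + 0.1 (log y axis); points are libraries, dashes group means, and genes are ordered by their fold change in DTP. The 8 genes on the left, from KCNJ6 to SCN8A, had a higher region in DTP, and the 8 on the right, from CACNA1B to CACNA1E, a lower region in at least 1 group.

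Markers of other cell types outside the channel families were looked at beside these gains. Of 14 neuronal and neuroendocrine markers, 3 had any annotated region and only MAP2 had a promoter region, which rose from 1.23 CPM in DMSO to 16.1 CPM in DTP and 20.1 CPM in DTP + AZD5153, a log2 fold change of 3.69 (edgeR adjusted p = 0.00449) and 4.01 (edgeR adjusted p = 0.00176). Of the 23 regions of the 3 genes, 5 were higher and 2 lower in DTP, and 8 and 1 in DTP + AZD5153. The other 11 markers, CHGA and SYP among them, had no annotated region. Of 6 muscle markers, TNNT2 had a region, at its promoter, which rose by 3.84 (edgeR adjusted p = 0.00304) and 3.34 (edgeR adjusted p = 0.00221). Of the 17 regions of channel genes of muscle type, 0 were higher, and 1 was lower in DTP (5.88%) and 6 in DTP + AZD5153 (35.3%). The fall in DTP and 5 of the 6 in DTP + AZD5153 were at CACNG6, and the other was at KCNH2. Of annotated regions outside promoters, 9.35% and 13.7% were higher and 10.3% and 15.6% lower. Of the 29 regions of channel genes of epithelial type, 1 was higher and 1 lower in DTP (3.45% each), and 2 were higher (6.90%) and 6 lower (20.7%) in DTP + AZD5153, beside 5.58% and 5.13%, and 9.05% and 9.01%, of all regions tested. The part of these cell types in the channel results was not tested.

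Partner proteins and related channels outside the rule gave 133 regions at 21 of 33 genes. In DTP 6 were higher (4.51%) and 12 lower (9.02%), and in DTP + AZD5153 7 were higher (5.26%) and 19 lower (14.3%). Of all regions tested, 5.58% were higher and 5.13% lower in DTP, and 9.05% and 9.01% in DTP + AZD5153, and of annotated regions outside promoters 9.35% and 10.3%, and 13.7% and 15.6%. The shares of the partners lie near or below the latter, and the regions named next are examples. STAC, an adaptor of L-type calcium channels, rose at 3 intronic regions in DTP and 4 in DTP + AZD5153, whereas ANK3, the ankyrin that anchors sodium and KCNQ channels, fell at 5 and 6. At STAC, chr3:36497224-36497725 rose by 3.76 and 4.41 on the log2 scale. DPP6, a Kv4 partner, had 1 region higher and 2 lower in DTP, and its strongest fell by 3.69 and 4.28. NALCN, the sodium leak channel, had 1 of 2 promoter regions lower, by 2.69 and 1.97.

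No channel region was called between DTP + AZD5153 and DTP. Of all 157919 regions tested, edgeR also called 0 higher and 0 lower in this comparison, and DESeq2 21 and 73. The groups differ in AZD5153 and in the last 3 days of osimertinib, which is listed for DTP only. These differences cannot be told apart. Of the channel regions, 0 were higher and 0 lower than in DTP by edgeR, 0 by DESeq2, and 13 had an unadjusted p under 0.05, of which 6 were higher and 7 lower. The smallest unadjusted p was that of KCNMB4 (chr12:70448830-70449331; log2 difference -2.56 ± 0.72), followed by KCNJ15 (chr21:38245572-38246073; -2.38 ± 0.78). The differences ran from -2.56 to 1.83 and had a median of 0.09, beside 0.06 over all regions tested. At the KCNQ5 promoter region chr6:72622852-72623353 the difference was 1.44 ± 0.57. Among the 26 regions of KCNMA1 the median difference was 0.10 and among the 8 of KCNMB2 it was 0.31. Calls against DMSO that were made in only 1 of the groups therefore do not show that the groups differed.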

How the data were processed

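H3K27ac ChIP-seq libraries (reads of 75 nt) of H1975 cells were analysed from the processed files. The submitters' processing notes name BWA 0.7.17, MACS2 2.2.6, featureCounts 2.0.0, ChIPseeker 1.29.1 and the build hg38; settings and the rule that selected the annotated regions are not given in the sources used here, and the paper describes no such analysis. The authors deposited raw read counts per region, with no normalization, and 1 peak list per library, in which each peak has a fold enrichment as a ratio and a q-value as −log10. Peak lists were used only for overlap (at least 1 base). Groups came from the sample titles.

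Regions that passed filterByExpr (minimum count 10) entered glmQLFit (robust) and glmQLFTest of edgeR 4.0.16 under R 4.3.3 with limma 3.58.1. TMM factors were used, the 9 H3K27ac libraries shared 1 model with group means, and p-values were adjusted over 157919 regions (Benjamini-Hochberg, threshold 0.05). CPM use the TMM-scaled library size; a standard error is the log2 fold change divided by the square root of F. The procedure was also run on simulated counts with the same spread at every region and no library that stands apart. These settings differ from the data, so that run is not used as support here. p-values measure the spread between 3 replicates per group, and intervals cover counting error only. Alternatives were DESeq2 1.42.0, no TMM, a loess offset (span 0.3), no filter, only the groups compared, a replicate block and leaving out each library. Deviations of same-numbered DMSO and osimertinib DTP libraries from their group means correlated by 0.334, 0.355 and 0.324. For DMSO and osimertinib DTP + AZD5153 the values were -0.018, 0.553 and 0.362, and between the treated groups 0.243, 0.026 and -0.240. Libraries with different numbers were not compared, so a pairing by replicate number was not shown. What a number stands for is not stated.

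The members, the families and the gene lists were chosen with earlier results of these data known. Regions named in the text are, per family and comparison with DMSO, the largest called rise and fall; the strongest called region of genes with at least 3 called regions; called promoters of neural genes; and the 5 highest regions in and outside promoters (48 regions in all). Other regions with values were chosen after their values were seen. Values of some genes are not reported here.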

Additional observations from a re-analysis of the deposited data

How the results depend on the processing

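None of the 206 calls against DMSO reversed under an alternative that gave it a value; 2 had none in the fit of only the groups compared. DESeq2 kept all 206, no filter 199, the replicate block 195, the loess offset 194, library size without TMM 190 and the fit of only the groups compared 183. The counts of called regions stayed within 1.5 times under these alternatives, except that in osimertinib DTP (DTP) 65 regions were lower with DESeq2 and that the fit of only the groups compared gave 82 higher and 70 lower; the latter estimates the spread from fewer libraries. With the replicate block 50 were higher and 43 lower in DTP, and 55 and 57 in DTP + AZD5153, so the block moved no total by over 1.5 times. Leaving out a library gave 11 to 79 higher and 6 to 78 lower regions in DTP, and 35 to 82 and 32 to 88 in DTP + AZD5153, the fewest without DMSO replicate 2 and the most without DTP + AZD5153 replicate 3; the cause was not tested. In DTP alone counts were also lower by more than 1.5 times without DMSO replicate 1 (32 higher), DMSO replicate 3 (16 higher, 19 lower), and DTP replicates 1 (26 lower), 2 (27 and 19) and 3 (29 and 14), and in DTP + AZD5153 without DMSO replicate 3 (36 and 35) and DTP + AZD5153 replicate 1 (37 lower). Between the treated groups 0 regions were higher and 0 to 1 lower. With promoters taken within 3 kb, 8 were higher and 2 lower in DTP, and 8 and 8 in DTP + AZD5153. Without TMM the median log2 fold change over all regions in DTP + AZD5153 moved from 0.23 to -0.02, and fold changes are read relative to it. Regions with about 1 CPM in DMSO rest on few counts, which limits the size of a rise.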
